A study of Mus musculus with 9 samples.

Results

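The genes described here are lipoprotein lipase and 9 genes that act with it in the uptake and release of lipid, namely Lpl, Gpihbp1, Angptl4, Lmf1, Cd36, Vldlr, Apoe, Fabp4, Lipe and Pnpla2. They were chosen by name and not by a cutoff on their values, although earlier results of these data were known. They are 10 of the 24537 gene names measured. All 10 were found in the comparison of sham quadriceps with sham heart, in 24 of its 35745 transcript rows. The comparison of quadriceps after transverse aortic constriction (TAC) with sham quadriceps held only 587 genes annotated to the extracellular space, and 6 of the 10 were among them (Lpl, Gpihbp1, Angptl4, Vldlr, Apoe and Lipe).

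The libraries came from C57Bl/6JCrl mice that were 8 to 10 weeks old at surgery. TAC tightens a suture around the aortic arch against a 27 gauge needle and loads the left ventricle with pressure, and sham animals had the operation without the constriction. RNA was taken 12 weeks after surgery from 3 sham hearts, 3 sham quadriceps muscles and 3 TAC quadriceps muscles, and the labels name the TAC muscles as cachectic. The 3 sham quadriceps libraries serve in both comparisons. The TAC columns are numbered 1, 2 and 4 while the labels number the TAC samples to 3, so the column called TAC library 4 here is placed in the TAC group by its name, without a match to 1 sample. The study used male mice without transgenes, and whether tissue was pooled or which heart and muscle came from 1 mouse is not given in the sources used here. The p-values therefore measure the spread between libraries.

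Lipoprotein lipase is made inside muscle fibers, cardiomyocytes and adipocytes and is carried to the capillary lumen, where it splits the triglycerides of chylomicrons and very low density lipoproteins. Lmf1 is needed for the enzyme to fold in the endoplasmic reticulum, Gpihbp1 carries it across the endothelial cell and holds it there, and Angptl4 inactivates it. The released fatty acids enter tissue through Cd36 and are bound by Fabp4 in capillary endothelium and adipocytes, while Vldlr binds remnant particles through their ligand Apoe. Inside cells, Pnpla2 and Lipe take the first and the next fatty acid from stored triglyceride. Heart and muscle both burn fatty acids, and the heart depends on them at rest.

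The promoters of 3 members that differed between the tissues are shown because Cd36 and Apoe were lower in quadriceps than in heart and Vldlr was not. Each run is the 250 bases before a RefSeq transcript start (GRCm38.p6, the mm10 assembly used by the files), written 5′ to 3′ along the gene's strand, with capitals where a searched motif matched. The Cd36 window lies at chr5:17835897-17836146 on the minus strand, inside the Cd36 gene but over no annotated exon. The Apoe window lies at chr7:19699189-19699438 on the minus strand and the Vldlr window at chr19:27216234-27216483 on the plus strand, and no annotated exon overlaps either.
Cd36: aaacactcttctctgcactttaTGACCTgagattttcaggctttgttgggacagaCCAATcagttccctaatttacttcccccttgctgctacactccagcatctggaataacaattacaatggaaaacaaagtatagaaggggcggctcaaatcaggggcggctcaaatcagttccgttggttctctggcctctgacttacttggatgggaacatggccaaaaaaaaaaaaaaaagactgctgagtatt
Apoe: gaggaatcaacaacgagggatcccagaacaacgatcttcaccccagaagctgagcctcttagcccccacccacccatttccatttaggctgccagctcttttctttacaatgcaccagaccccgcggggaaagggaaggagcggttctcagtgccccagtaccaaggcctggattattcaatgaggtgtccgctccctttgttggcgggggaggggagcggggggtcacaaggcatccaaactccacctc
Vldlr: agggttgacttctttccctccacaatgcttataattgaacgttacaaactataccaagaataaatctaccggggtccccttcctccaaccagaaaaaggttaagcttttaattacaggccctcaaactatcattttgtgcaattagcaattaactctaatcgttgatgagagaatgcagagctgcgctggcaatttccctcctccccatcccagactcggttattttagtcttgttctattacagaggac
The motifs searched on both strands were TATAAA (the TATA box), CCAAT (the box bound by NF-Y), AGGTCA (the letters that nuclear receptor sites repeat) and ACGTG (the core of a hypoxia response element). Over the 250 bases before the start in all 32851 windows of the table, 12.37% held TATAAA, 33.85% CCAAT, 14.02% AGGTCA and 16.57% ACGTG. In the Cd36 window, AGGTCA matched on the opposite strand from base 228 before the start and CCAAT matched from base 195. The Apoe and Vldlr windows shown, each the one farthest upstream in the table, held none of these 4 runs of letters. Windows of other starts did, with TATAAA from bases 100 and 96 before one Apoe start and CCAAT from base 78 before another Vldlr start. The RefSeq table had entries for 6 of the 10 genes, and Lpl, Gpihbp1, Angptl4 and Fabp4 had none.

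The tissues matched their labels, and their makeup bears on every value that follows. All 8 cardiomyocyte markers (Ryr2, Tnni3 and others) were lower in quadriceps and all 8 skeletal muscle fiber markers (Actn3, Tnnt3 and others) were higher. The heart libraries 1, 2 and 3 differed widely in Myl7 (1523, 114 and 2.44 normalized counts) and Myl4 (4998, 525 and 74.1). For Myl4, heart library 3 lay below all quadriceps libraries. Total counts ran from 33102826 to 38382751 in heart, from 23383452 to 32989108 in sham quadriceps and from 48614494 to 48999600 in TAC libraries 1 and 2. The sham quadriceps libraries differed widely in adipocyte markers, highest in library 1 and lowest in library 3. In bulk tissue, fewer cells of a type and less RNA per cell cannot be told apart.

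The first comparison asks how the lipid uptake genes are set in skeletal muscle against heart. Lpl, Cd36, Apoe, Lmf1 and Pnpla2 were lower in sham quadriceps than in sham heart, by 3.49-fold, 3.54-fold, 2.89-fold, 1.87-fold and 1.25-fold. Angptl4 was 3.33-fold higher and Vldlr 1.28-fold higher in quadriceps with TMM scaling, and Vldlr turned to lower when the libraries were scaled by their total counts. Gpihbp1, Fabp4 and Lipe did not pass the test. The 7 members called compare with a background of 66% of the 14906 gene names tested, 32.1% higher and 33.9% lower in quadriceps (edgeR's quasi-likelihood test, Benjamini-Hochberg adjusted p under 0.05, 1 transcript row per gene name). The groups did not overlap for 71.7% of gene names. At a log2 fold change beyond 2 in either direction with an unadjusted p under 0.05, limits that the study applied to genes higher in quadriceps only, 16.2% of gene names passed and none of the 10 members did.

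Levels can be compared between genes as RPKM, which the authors scaled by transcript length and library total, and they are given as the mean ± SD of 3 libraries. In heart, Lpl came first at 863 ± 36.1 RPKM, followed by Fabp4 at 560 ± 78.2 and Cd36 at 437 ± 22.0. Apoe followed at 144 ± 8.44 RPKM, Pnpla2 at 55.2 ± 1.54, Vldlr at 39.2 ± 2.65 and Gpihbp1 at 24.2 ± 1.59. Lmf1 lay at 7.39 ± 0.552 RPKM, Lipe at 4.30 ± 0.269 and Angptl4 at 0.955 ± 0.102. No neighbours in this order overlapped in heart, and all 3 heart libraries gave the same order.

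In quadriceps the order changed at the top. Fabp4 came first at 322 ± 172 RPKM, ahead of Lpl at 148 ± 35.8 and Cd36 at 75.2 ± 44.7. Lpl and Cd36 overlapped across the quadriceps libraries, although Lpl was above Cd36 within each of them. Within each quadriceps library the ratio of Lpl to Fabp4 per kilobase was 0.362, 0.518 and 0.634, and within each heart library it was 1.78, 1.43 and 1.45, so Lpl exceeded Fabp4 in every heart library and in no quadriceps library. Below them, Vldlr (30.01 ± 6.48 RPKM), Apoe (29.8 ± 5.77) and Pnpla2 (26.3 ± 1.33) could not be separated, and they changed places from library to library. Gpihbp1 lay at 12.9 ± 1.24 RPKM in quadriceps, and Lipe (2.41 ± 1.28), Lmf1 (2.33 ± 0.303) and Angptl4 (1.91 ± 1.70) overlapped at the bottom.

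**Figure D1:**
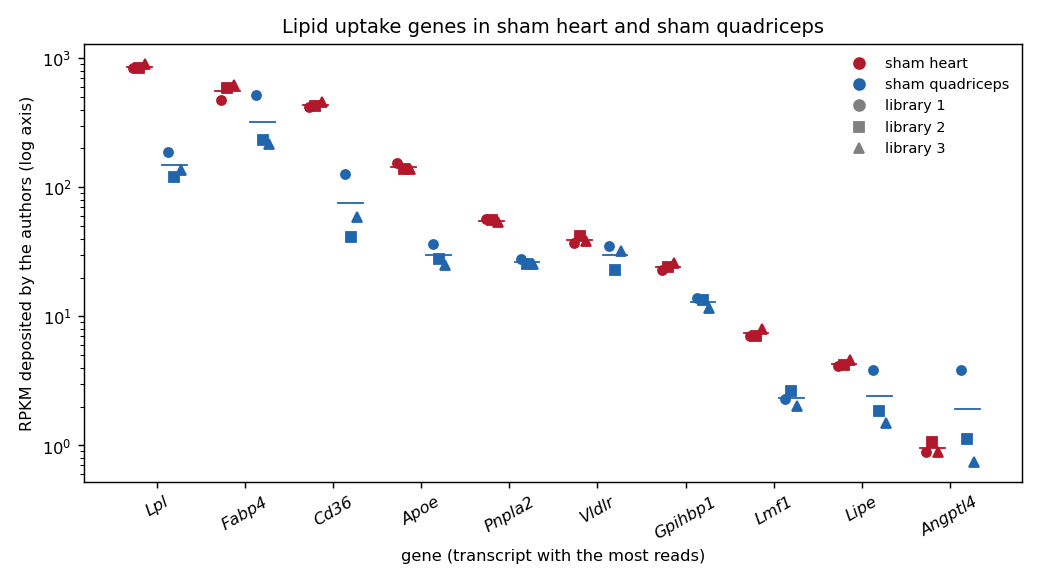
RPKM deposited by the authors (log axis) of the 10 genes in 3 sham heart and 3 sham quadriceps libraries, with a line at each mean. Lpl lies above Fabp4 in heart (863 against 560 RPKM) and below it in quadriceps (148 against 322 RPKM).

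The differences below are of normalized counts, which are raw counts divided by the TMM-scaled library size relative to the mean of the 6 libraries, and the log2 fold changes are sham quadriceps over sham heart. Lpl had 92481, 90599 and 98387 normalized counts in heart and 31891, 23294 and 25401 in quadriceps. The lowest heart library held more than 2 times the highest quadriceps library, and the log2 fold change was -1.80 (95% confidence interval -2.15 to -1.46, adjusted p = 6.66e-06, edgeR's quasi-likelihood test). Lmf1, the maturation factor, had 354, 350 and 400 normalized counts in heart against 179, 235 and 174 in quadriceps. These groups did not overlap either, at a log2 fold change of -0.90 (-1.22 to -0.59, adjusted p = 0.000352, same test).

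The endothelial anchor of the enzyme did not follow it. Gpihbp1 had 488, 509 and 551 normalized counts in heart and 460, 510 and 421 in quadriceps, which overlapped at a log2 fold change of -0.15 (-0.40 to 0.09). The ratio of Lpl to Gpihbp1 counts within a library was 190, 178 and 179 in heart and 69.3, 45.7 and 60.4 in quadriceps. Of 12 markers of capillary endothelium, 11 (Eng, Kdr and others) were lower in quadriceps, at a list median of -1.41 and a summed level of 12265 to 13126 against 26929 to 27969 normalized counts in heart. The exception was the water channel Aqp1, at 0.66 with TMM and -0.089 with library totals. Gpihbp1 counts per Pecam1 count, where Pecam1 is an adhesion protein of all endothelial cells, were 0.166, 0.163 and 0.165 in heart and 0.372, 0.4635 and 0.340 in quadriceps. These ratios need no scaling between libraries and were chosen after the values were seen.

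Angptl4, the inhibitor of the enzyme, had the lowest mean level of the members in both tissues and, relative to its mean, varied most in quadriceps. It had 46.2, 54.2 and 45.6 normalized counts in heart and 307, 102 and 65.2 in quadriceps. Every quadriceps library was above every heart library with TMM, although quadriceps library 3 fell below all heart libraries in RPKM, and the log2 fold change was 1.74 (0.66 to 2.81, adjusted p = 0.00963, edgeR's quasi-likelihood test). It was 0.83 (adjusted p = 0.0134) without sham quadriceps library 1 and 1.02 (adjusted p = 0.119) with library totals.

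The uptake receptors and their ligand moved apart. Cd36 had 39207, 39284 and 42715 normalized counts in heart and 18117, 6837 and 9269 in quadriceps, with a log2 fold change of -1.82 (-2.52 to -1.13, adjusted p = 0.000606, edgeR's quasi-likelihood test). The 5 Cd36 transcript rows shared most of their reads and lay between -1.85 and -1.79. Apoe had 5310, 4724 and 4752 normalized counts in heart and 1924, 1715 and 1464 in quadriceps, and its log2 fold change was -1.53 (-1.81 to -1.26, adjusted p = 4.49e-06). For both genes the heart libraries lay above all quadriceps libraries. Of 10 macrophage genes tested, 7 were also lower in quadriceps and 0 higher, where 33.9% of all gene names were called lower. The part of macrophage or endothelial RNA in the values of Cd36 and Apoe was not tested.

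Vldlr had 8410, 9335 and 8506 normalized counts in heart and 12254, 9092 and 12259 in quadriceps. The groups overlapped, since quadriceps library 2 lay below heart library 2. The log2 fold change was 0.36 (0.04 to 0.67, adjusted p = 0.0444) with TMM but -0.39 (adjusted p = 0.0594) with library totals. What no scaling touches is the ratio of Vldlr to Lpl counts, which was 0.0909, 0.103 and 0.0865 in heart and 0.384, 0.390 and 0.483 in quadriceps.

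Among the intracellular members, Pnpla2, the first lipase of stored triglyceride, had 4160, 4015 and 3903 normalized counts in heart and 3158, 3313 and 3206 in quadriceps. The groups were separate and close to each other, with a log2 fold change of -0.32 (-0.52 to -0.11, adjusted p = 0.0115, edgeR's quasi-likelihood test). Without sham heart library 1 the adjusted p was 0.0599. The Pnpla2 row used is a non-coding RefSeq transcript, and all 3 Pnpla2 rows were called, at log2 fold changes between -0.32 and -0.25. Fabp4 had 8158, 9938 and 10639 normalized counts in heart and 13848, 7070 and 6306 in quadriceps. Lipe, hormone-sensitive lipase, had 357, 359 and 398 normalized counts in heart and 522, 286 and 223 in quadriceps. For both, quadriceps library 1 lay above all heart libraries and the other two quadriceps libraries below them, and the log2 fold changes were -0.08 (-0.68 to 0.53) and -0.09 (-0.67 to 0.48). Lipe (chromosome 7, 25379527 to 25398710) overlaps the antisense gene 4732471J01Rik, and use of strand in counting was not given in the sources used here, so reads of the 2 genes cannot be told apart where they overlap.

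**Figure D2:**
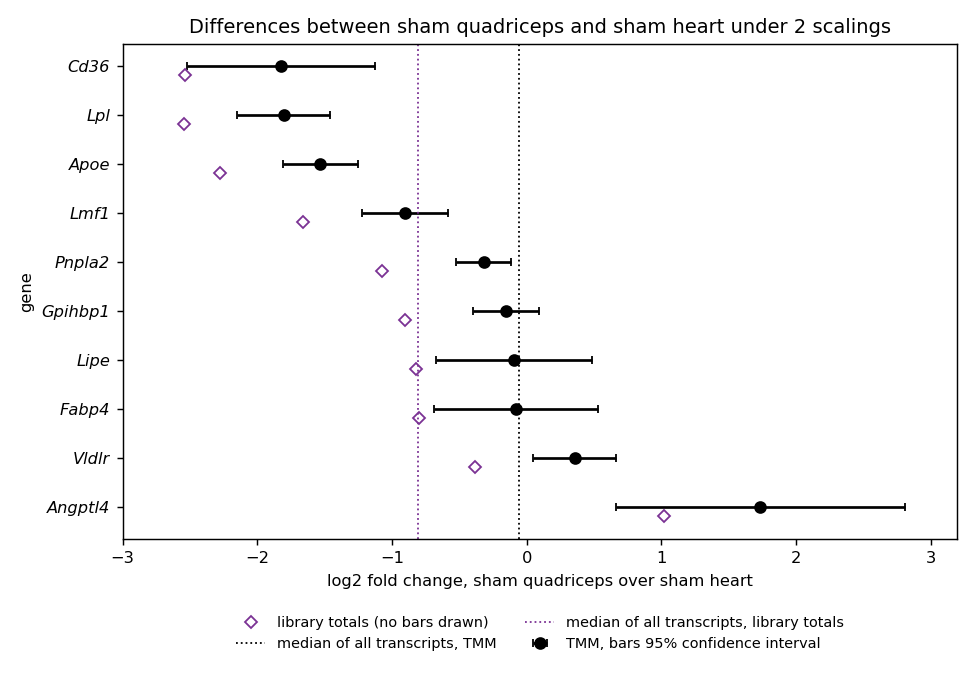
Log2 fold change of the 10 genes, sham quadriceps over sham heart (3 libraries each), with TMM scaling (filled, bars 95% confidence interval) and with library totals (open). Dotted lines are the medians over all transcripts, -0.06 with TMM and -0.80 with totals, and Vldlr changes sign between the scalings.

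The choice of scaling moved every one of these values by about the same amount. With library totals in place of TMM, the median log2 fold change over all 24280 tested transcripts went from -0.06 to -0.80, a shift of -0.75. With totals, 62% of gene names were called lower and 13.6% higher in quadriceps. Lpl then lay at -2.54, Cd36 at -2.54, Apoe at -2.28 and Lmf1 at -1.66, and all passed the test. Gpihbp1 (-0.90, adjusted p = 0.000106) and Lipe (-0.82, adjusted p = 0.0384) passed as lower only with totals and with limma on RPKM or, for Lipe, without sham quadriceps library 1. Fabp4 lay at -0.80 (adjusted p = 0.0515) with totals and passed as lower with limma on RPKM (-0.91, adjusted p = 0.0346) and without sham quadriceps library 1. Relative to the median shift, Gpihbp1, Lipe and Fabp4 stayed near the middle of all transcripts with TMM and with totals.

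Over the 3 sham quadriceps libraries, Angptl4, Fabp4 and Lipe ran in the same order as adipocyte transcripts. The adipokine Adipoq had 1520, 621 and 186 normalized counts in sham quadriceps libraries 1, 2 and 3, the adipsin gene Cfd 1614, 747 and 186, and the resistin gene Retn 505, 294 and 81.0. Their highest heart values were 19.1, 20.5 and 3.47 normalized counts. Angptl4, Fabp4, Lipe and Cd36 were also highest in library 1, although Cd36 was lowest in library 2 and not in library 3. Of the 9 adipocyte genes listed, 8 were tested and 7 were higher in quadriceps, and the sum of the 7 tested without Car3, which muscle fibers also express, was 4779, 2108 and 691 normalized counts in quadriceps against 173 to 217 in heart. Without library 1, the log2 fold changes against heart were -0.49 for Fabp4 and -0.50 for Lipe (adjusted p = 0.0105 and 0.0104, edgeR's quasi-likelihood test), while Lpl stayed between -1.92 and -1.71 whichever library was left out. The 8 skeletal muscle fiber markers also differed, summing to 2322090, 3138860 and 3229720 normalized counts in sham quadriceps libraries 1, 2 and 3. The part of adipocyte RNA or of fiber RNA in these values was not tested.

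**Figure D3:**
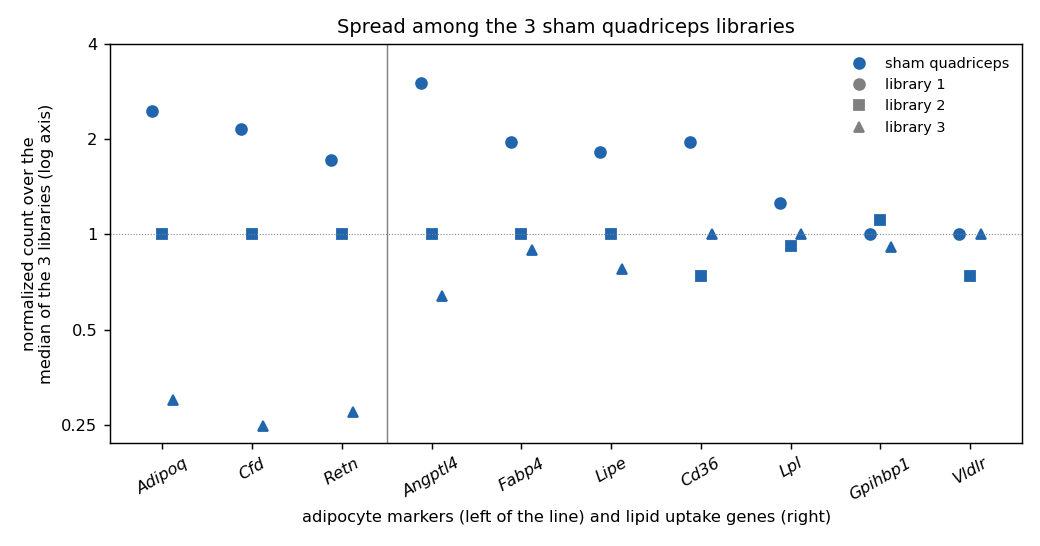
Normalized counts of 3 adipocyte markers and 7 lipid uptake genes in the 3 sham quadriceps libraries, each divided by the median of the 3 (log axis). Library 1 is highest for the markers and for Angptl4, Fabp4, Lipe, Cd36 and Lpl, whereas Gpihbp1 spreads least of the 7 genes plotted.

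The regulators that act on the lipase were mostly lower in quadriceps. Of 11 listed regulators, 6 were tested, 4 were lower and 1 was higher, with a median log2 fold change of -1.15 against -0.06 over all transcripts. For this list and those that follow, the background was 32.1% of gene names called higher and 33.9% lower. The proprotein convertases Pcsk6 (-3.10, adjusted p = 3.23e-08) and Furin (-1.60, adjusted p = 1.81e-06), enzymes of a family that cleaves the lipase, were lower by edgeR's quasi-likelihood test. Apoc1, an apolipoprotein that hinders particle uptake, was higher (3.25, adjusted p = 0.00162) at 4.40, 3.47 and 3.26 normalized counts in heart and 46.3, 52.6 and 5.93 in quadriceps, where library 3 lay close to heart.

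Among 6 tested apolipoproteins and lipid transfer genes, 3 were higher and 1 lower, with a median of 1.53, or 1.14 with the 2 genes near 0 in heart at a bound of 3 counts per library. Apod, a carrier of small lipids, was higher in quadriceps (250, 261 and 237 against 1579, 1756 and 1379 normalized counts, log2 fold change 2.66, adjusted p = 1.09e-07, edgeR's quasi-likelihood test). Pltp, which moves phospholipid between particles, was lower (-1.61, adjusted p = 2.38e-06). The other two called higher, Apoh and Apoa1, rested on at most 13 raw counts in any library.

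Of 8 lipoprotein receptors and adaptors tested, 3 were higher and 3 lower (median -0.38). The sorting receptors Sort1 (2.14, adjusted p = 1.55e-06) and Sorl1 (1.12, adjusted p = 0.000151) were higher in quadriceps, although Sorl1 lay at 0.37 (adjusted p = 0.0566) with library totals and was not called. The remnant receptor Lrp1 (-2.09, adjusted p = 1.09e-06) was lower, all by edgeR's quasi-likelihood test.

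Of 15 fatty acid uptake and activation genes tested, 9 were lower and 4 higher (median -0.58). Fabp3, the fatty acid binding protein of cardiac and skeletal muscle, had 11729, 13479 and 13075 normalized counts in heart and 4832, 2231 and 2753 in quadriceps (log2 fold change -1.96, adjusted p = 0.000107, edgeR's quasi-likelihood test). Fabp7, the brain form, was called lower (-2.02, adjusted p = 0.0495) on 12, 14 and 32 raw counts in heart and 6, 1 and 0 in quadriceps. It lay at -3.91 without sham quadriceps library 1 and was not called without sham heart library 3 (-1.37, adjusted p = 0.149), without sham quadriceps library 2 (-1.65, adjusted p = 0.138) or library 3 (-1.58, adjusted p = 0.125), or with 1 transcript per gene (adjusted p = 0.0517). The acyl-CoA synthetases Acsl3 (2.89, adjusted p = 2.74e-07) and Acsl6 (1.85, adjusted p = 0.00029) were higher. Of 18 droplet and intracellular lipolysis genes, 8 were lower and 5 higher (median -0.27). Mgll, which splits monoglycerides after Pnpla2 and Lipe, was lower (-2.22, adjusted p = 3.62e-06), as were the droplet proteins Cidea (-2.03, adjusted p = 0.0041) and Plin3 (-1.86, adjusted p = 3.17e-05). Cidea lay at -3.32 without sham quadriceps library 1. Cidec, a droplet fusion protein of adipocytes, was higher (5.47, adjusted p = 0.00012) and was also highest in sham quadriceps library 1, without which it lay at 4.61, against 6.47 without sham heart library 1. Abhd5, the activator of Pnpla2, was higher with TMM (0.39, adjusted p = 0.00384) and lower with library totals (-0.36, adjusted p = 0.00788).

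The second comparison asks which of the extracellular genes of quadriceps differ 12 weeks after TAC. Of the 6 members in that table, all 6 passed the filter on low counts, and 2 were higher after TAC with TMM scaling, Vldlr by 2.62-fold and Gpihbp1 by 1.79-fold. Lpl, Apoe, Lipe and Angptl4 did not pass the test. The background was 29.7% of the 586 genes tested, 17.7% higher and 11.9% lower, and the groups did not overlap for 47.3% of them. At the study's threshold for this comparison, log2 fold changes of 1 or more in size and an unadjusted p under 0.05, 24.1% of genes passed and Vldlr was the only member to pass.

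Vldlr had 7596, 6192 and 8344 normalized counts in sham quadriceps and 30833, 13192 and 13860 after TAC. Every TAC library lay above every sham library, and TAC library 1 lay far above the other two. The log2 fold change was 1.39 (95% confidence interval 0.59 to 2.19, adjusted p = 0.0207, edgeR's quasi-likelihood test). It was 0.81 (adjusted p = 0.0379) without TAC library 1, and the adjusted p was 0.0836, 0.0801 and 0.0570 without sham libraries 1, 2 and 3.

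Gpihbp1 had 248, 309 and 252 normalized counts in sham quadriceps and 434, 521 and 497 after TAC. The groups were separate and each was narrow, with a log2 fold change of 0.84 (0.34 to 1.34, adjusted p = 0.0220, edgeR's quasi-likelihood test). Without 1 sham library the adjusted p ran from 0.0567 to 0.115, and without TAC library 4 it was 0.0506. The row counted here is a transcript of 421 bases, shorter than the 791 bases of the row used against heart.

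Some endothelial markers in the table were also higher after TAC. Of 12 endothelial genes, 5 were present, and Pecam1 (0.63, adjusted p = 0.0341) and Vwf (0.84, adjusted p = 0.0346) were higher and none lower with TMM, at a list median of 0.49 against 0.03 over all genes. The 5 summed to 4054 to 4628 normalized counts in sham muscle and 5755 to 6879 after TAC. Eng (0.015), Egfl7 (0.069) and Aqp1 (0.49) did not pass. With library totals Pecam1 lay at -0.02, Vwf at 0.09 and Egfl7, a secreted endothelial factor, at -0.94 (adjusted p = 0.0333), called lower. Gpihbp1 counts per Pecam1 count ran 0.327, 0.414 and 0.3015 over sham muscles and 0.345, 0.455 and 0.410 over TAC muscles, which overlapped. Pecam1 was itself called higher after TAC, so this overlap depends on the marker used. Eng had 211, 251 and 252 normalized counts in sham muscle and 233, 265 and 221 after TAC. The groups overlapped for Eng, unlike those of Gpihbp1. Vldlr counts per Pecam1 count were 10.02, 8.28 and 9.998 in sham muscle and 24.5, 11.5 and 11.4 after TAC, which did not overlap. The part of endothelial RNA in either value was not tested.

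Lpl itself had 20173, 16112 and 17682 normalized counts in sham quadriceps and 23296, 32066 and 10677 after TAC. The TAC libraries lay on both sides of all 3 sham libraries. The log2 fold change was 0.29 (-0.54 to 1.12, adjusted p = 0.576, edgeR's quasi-likelihood test), an interval that spans 0. It was -0.04 with library totals and -0.08 without TAC library 2. Vldlr counts per Lpl count were 0.377, 0.384 and 0.472 in sham and 1.32, 0.411 and 1.30 after TAC, and TAC library 2 lay inside the sham range.

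The remaining members overlapped between the groups or missed the threshold. Apoe had 1062, 1036 and 891 normalized counts in sham and 1457, 923 and 1834 after TAC, with a log2 fold change of 0.50 (-0.12 to 1.11, adjusted p = 0.196). Its 2 high TAC libraries, 1 and 4, were also those with more adipocyte transcripts. The sum of Adipoq, Cfd and Retn was 1935, 415 and 2860 normalized counts in TAC libraries 1, 2 and 4. After sham surgery this sum was 2302, 1149 and 315, while Apoe was 1062, 1036 and 891. The 5 macrophage genes summed to 1043, 865 and 1270 normalized counts in sham libraries 1, 2 and 3. They summed to 519, 415 and 480 in TAC libraries 1, 2 and 4. The part of adipocyte or macrophage RNA in Apoe was not tested. Without TAC library 2 Apoe passed the test (0.72, adjusted p = 0.0324), and with library totals it lay at -0.39.

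Lipe had 336, 195 and 143 normalized counts in sham and 461, 331 and 350 after TAC, with a log2 fold change of 0.76 (-0.02 to 1.53, adjusted p = 0.125, edgeR's quasi-likelihood test). TAC library 2 lay just below the highest sham library. TAC libraries 2 and 4 were close in Lipe, although their adipocyte sums were 415 and 2860 normalized counts. Angptl4 had 194, 70.7 and 45.4 normalized counts in sham and 178, 51.9 and 48.1 after TAC. Its lowest TAC value was that of library 4, the TAC library with the highest adipocyte sum. Library 1 was the highest of each group, and the log2 fold change of -0.17 (-1.65 to 1.31) had the widest interval of the 6.

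**Figure D4:**
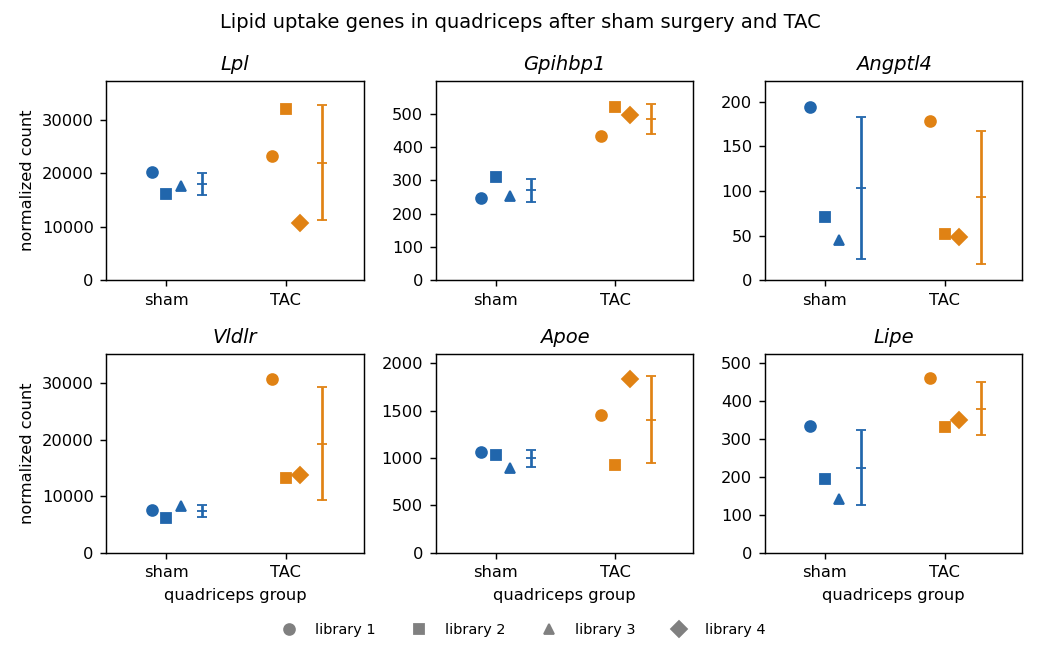
Normalized counts of the 6 genes in 3 sham and 3 TAC quadriceps libraries, with the mean and SD beside the points. The groups are separate for Vldlr and Gpihbp1 and overlap for Lpl, Angptl4, Apoe and Lipe.

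The calls of members after TAC changed with the scaling and with the libraries used. Since only extracellular genes are listed, the TMM factors rest on those genes. Leaving out any 1 sham library with TMM left 0 members called. Library totals were recovered for 5 of the 6 libraries, without TAC library 4. On those 5 libraries with TMM, Vldlr lay at 1.52 (adjusted p = 0.0290, edgeR's quasi-likelihood test) and Gpihbp1 at 0.73 (adjusted p = 0.0506). With library totals the median log2 fold change over all genes was -0.63. With TMM it was 0.03 on all 6 libraries, a shift of -0.66, and -0.08 on the same 5. Totals called 3.41% of genes higher and 30.7% lower. Vldlr then lay at 0.93 (adjusted p = 0.0784) and Gpihbp1 at 0.19 (adjusted p = 0.555), and neither was called. Vldlr lay 1.36 above the median of all genes with TMM on 6 libraries and 1.56 above it with totals on 5. Gpihbp1 lay 0.81 and 0.82 above it. These values differ in libraries as well as in scaling. In the authors' RPKM, Vldlr came to 35.7, 23.1 and 32.3 after sham surgery, to 81.6 for TAC library 1 and to 34.3 for TAC library 2, which fell inside the sham range.

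**Figure D5:**
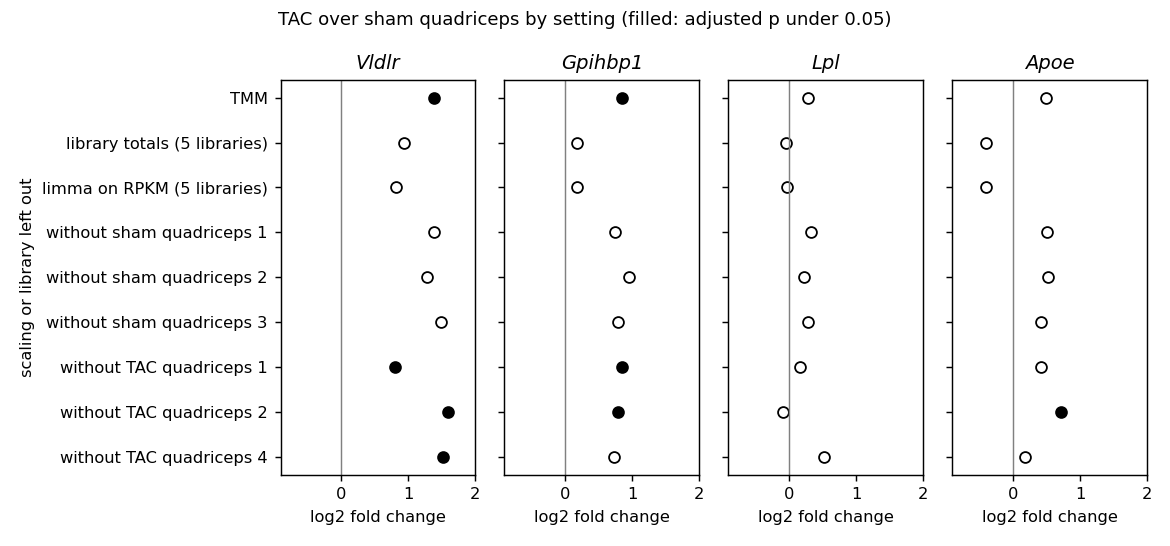
Log2 fold change of Vldlr, Gpihbp1, Lpl and Apoe, TAC over sham quadriceps, with TMM, with library totals, with limma on RPKM and without each library (filled where the adjusted p was under 0.05). Vldlr is above 0 throughout, from 0.81 to 1.60, whereas Lpl and Apoe cross 0.

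Few other genes of lipid transport were in the TAC table. Of the lists used above, 2 lipase regulators, 2 apolipoproteins and lipid transfer genes, 2 receptors, 1 fatty acid uptake gene and 2 droplet genes were tested, and 2 of these passed. Over all 586 genes tested, 17.7% were called higher and 11.9% lower. Apod was higher after TAC at 987, 1204 and 953 against 4664, 1803 and 2326 normalized counts (log2 fold change 1.48, adjusted p = 0.0181, edgeR's quasi-likelihood test). The groups were separate, and with library totals Apod did not pass (0.99, adjusted p = 0.0712). For Fabp3, the log2 fold change was -0.90 (adjusted p = 0.115) with TMM and -1.98 (adjusted p = 0.0159) with totals. The adipocyte genes Adipoq, Cfd and Retn were not called. Of the other cell types, 3 of 5 macrophage genes (C1qc at -1.41, adjusted p = 0.00664) and 4 of 5 fibroblast genes (Col3a1 at -3.95, adjusted p = 0.000557) were lower.

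The 3 genes of the TAC table whose level followed that of Lpl most closely over the 6 quadriceps libraries were Hbb-bs (Pearson's r = 0.975), Hist1h2be (r = 0.952) and Entpd1 (r = 0.935), out of 585 genes. Hbb-bs is a hemoglobin gene of red cells, Hist1h2be a histone gene and Entpd1 an ectonucleotidase of endothelium and leukocytes. The points share libraries and scaling, and TAC libraries 2 and 4 hold the highest and the lowest values of Lpl. For the members measured in both comparisons, the tables share their sham quadriceps libraries, so their values stand side by side only. Vldlr lay at 0.36 against heart and 1.39 after TAC, Gpihbp1 at -0.15 and 0.84, Lpl at -1.80 and 0.29, Apoe at -1.53 and 0.50, Lipe at -0.09 and 0.76 and Angptl4 at 1.74 and -0.17.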

How the data were processed

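RNA sequencing libraries of 3 sham hearts, 3 sham quadriceps muscles and 3 TAC quadriceps muscles were used. Reads were trimmed (Trim Galore), mapped to mm10 (STAR) and counted on RefSeq transcripts with Rsubread by the authors, who deposited the raw counts. Their deposited RPKM values divide each count by the transcript's length and the library's total, and transcript lengths are listed too. The deposited fold changes, p-values and F scores of their edgeR comparisons were not used. Columns of single libraries left unused number 1, the RPKM of the TAC library numbered 4.

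Counts above 5 in at least 2 libraries were tested with edgeR 4.0.16 (quasi-likelihood test, TMM, Benjamini-Hochberg adjustment over all rows of a table) in R 4.3.3. Alternatives were DESeq2 1.42.0 and its size factors, library totals, other count filters, limma 3.58.1 on log2(RPKM + 0.5), a replicate block, 1 transcript per gene, the study's limits on fold and unadjusted p (in both directions) and leaving out each library. A gene was given by its transcript row with the most counts. Members were named in full, with up to 4 called genes of each list by size of change, and some called list genes are counted but not reported by name here. Abhd5, Aqp1, Fabp3 after TAC and the ratios were chosen after their values were seen. Members and lists were chosen with earlier results of these data known. No 2 libraries agreed within sampling noise, and the procedure was tested on simulated data. Library totals of the sham libraries equal the counts summed over all transcript rows, so abundant transcripts of a tissue weigh on them. With 3 against 3 libraries, an exact permutation test of 1 gene cannot go below 0.1, so only tests across all genes were used. Positions come from GENCODE vM21 and promoters from RefSeq.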

Additional observations from a re-analysis of the deposited data

How the results depend on the processing

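Of the 16 log2 fold changes of the members, those of Lpl, Cd36, Apoe and Lmf1 between quadriceps and heart kept their direction and stayed past the threshold under all 14 alternatives. After TAC, 0 members were called with library totals, 0 with limma on RPKM, 1 at the study's threshold, and 0 to 3 when 1 library was left out. Without TAC library 4, Gpihbp1 missed the threshold. Against heart, 0 members passed a log2 fold change beyond 2 in either direction. The count of genes called after TAC ran from 60 to 215 when 1 library was left out, and the lowest counts (60, 83 and 72) came without sham libraries 1, 2 and 3. Against heart, 16182 transcripts were called, 9803 with 1 transcript per gene, where fewer were tested, and 3796 at a log2 fold change beyond 2 in either direction.

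Signs turned as follows. After TAC, Lpl went from 0.29 to -0.039 with totals and -0.029 with limma, and ranged from -0.083 (without TAC library 2) to 0.52 over the libraries left out. Apoe went from 0.50 to -0.39 with totals and -0.41 with limma, and Pecam1 from 0.63 to -0.021 and -0.015. Angptl4 ranged from -1.14 to 0.65 over the libraries left out and turned without sham library 1 (0.65), TAC library 2 (0.11) or TAC library 4 (0.06). Adipoq ranged from -0.74 to 0.65 and turned without sham library 1 or TAC library 2 (0.28). Cfd went from 0.73 to -0.44 with totals and -0.33 with limma. Against heart, Vldlr went from 0.36 to -0.39 and -0.40 with totals and limma, Abhd5 from 0.39 to -0.36 and -0.35, and Aqp1, an endothelial water channel, from 0.66 to -0.089 and -0.083. Over the libraries left out, Fabp4 ranged from -0.49 to 0.14 and turned without sham heart library 3, sham quadriceps library 2 or library 3, and Lipe ranged from -0.50 to 0.15 and turned without the same 2 quadriceps libraries. Against heart, the change of scaling moved the members by about the same amount. After TAC it did not, and there totals and limma also left out TAC library 4. Relative to the median of all genes after TAC, Lpl lay 0.26 above it with TMM and 0.59 above it with totals. Apoe lay 0.47 and 0.24 above it. The cause was not tested further.

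With the replicate number as a block, same-numbered libraries were compared, in 4 libraries numbered 1 and 2 for TAC. The block called 118 genes and 1 member there (Vldlr), and Cfd turned to -0.52. The same 4 libraries without the block, an alternative chosen after seeing the data, called 88 genes and 1 member, with Cfd at -0.19. Deviations of same-numbered libraries correlated at 0.08 and -0.17 for TAC and between -0.11 and 0.01 for heart. These values cannot decide whether same-numbered heart and quadriceps came from the same mouse, since both tissues need not deviate alike. Against heart the block called 15716 transcripts and 6 members, and Vldlr missed the threshold.

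Depth limits Angptl4, at 33 to 239 counts per quadriceps library. Without library totals for TAC library 4, totals compare 3 libraries with 2.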
